A study of Mus musculus with 2 samples.

Results

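Spots rich in the genes of the liver sinusoidal endothelium were described in spatial transcriptomics (ST) data from 2 mouse livers. In this assay (10x Visium on formalin-fixed, paraffin-embedded sections) gene probes bound to the tissue RNA are captured on barcoded spots and tagged with unique molecular identifiers (UMIs). Each value is thus the number of UMIs that a gene had in a spot. For each kept spot, defined as one with at most 50000 UMIs and 100 to 7000 detected genes, the UMIs of Clec4g, Stab2 and Kdr were summed and divided by all UMIs of the spot. The spots selected on this score were the top 10% in each library, 214 of 2140 kept spots in the section of AEG-1ΔMAC, 254 of 2540 in that of AEG-1fl/fl, or 468 of 4680 in all. They are called the chosen spots here, and the other kept spots of the same library are the rest.

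AEG-1ΔMAC mice lack AEG-1 (encoded by Mtdh) in myeloid cells, through a Cre driven by the Lyz2 locus acting on a floxed allele, and AEG-1fl/fl mice carry the floxed allele without deletion. Each genotype was 1 section of the liver of 1 mouse aged 27 weeks, and the labels name the same slide for both. With 1 section each, differences between genotypes have no replicate check and were not tested. The labels put both mice on a high-fat, high-sugar diet (HF/HSD) from 7 weeks of age, whereas the study's methods describe the assay on littermates fed a control diet. Which diet these 2 livers had is therefore unsettled, but the labels give the same diet for both.

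Sinusoidal endothelial cells line the capillaries between the plates of hepatocytes. They are perforated by pores, lack a continuous basement membrane and clear waste molecules from portal blood through scavenger receptors, of which stabilin-2 (Stab2) binds hyaluronan. Their genes change along the lobule from the portal tract (periportal, PP or zone 1) through the mid-lobule (ML or zone 2) to the central vein (pericentral, PC or zone 3). A Visium spot is wider than a sinusoid and holds several cells, mostly hepatocytes. A chosen spot is therefore a region where these transcripts were a larger share of the UMIs counted. The number of endothelial cells in it cannot be told apart from the RNA per cell.

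The score rests on a C-type lectin of the sinusoid (Clec4g), the scavenger receptor Stab2 and the main VEGF receptor (Kdr). RefSeq promoters of the 3 genes are shown because these genes define the spots. In the 100 bases before the RefSeq start, on build GRCm38.p6, an ETS-type motif (AGGAAG, searched on both strands) is in capitals, and its copies can overlap. ETS factors such as Erg and Ets1 are transcription factors of endothelial cells, and GATA factors such as Gata4 shape the sinusoidal type.
Clec4g, chr8:3720652-3720751, minus strand: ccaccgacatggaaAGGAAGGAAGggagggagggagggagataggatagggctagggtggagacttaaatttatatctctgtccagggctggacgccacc
Stab2, chr10:87007943-87008042, minus strand: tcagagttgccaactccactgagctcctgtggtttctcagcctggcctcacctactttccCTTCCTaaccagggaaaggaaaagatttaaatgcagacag
Kdr, chr5:75978456-75978555, minus strand: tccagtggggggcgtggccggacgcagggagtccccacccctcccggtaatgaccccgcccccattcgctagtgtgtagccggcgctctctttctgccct
The motif was present in the Clec4g window with 2 overlapping copies and in the Stab2 window with 1 copy, and these letters are not in the Kdr window. A GATA-type motif (AGATAA, both strands) is in none of the 3 windows. In the 250 bases before the start, 29.2% of 27025 promoters hold the ETS-type motif and 10.3% the GATA-type motif, so a match is common. Only 31 of the 47 genes described below as higher in the chosen spots have a promoter in the table, too few to give a share for them.

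The chosen spots were shallower than the rest. The median was 18560 UMIs per spot against 21227.5 in AEG-1ΔMAC and 14915.5 against 18831 in AEG-1fl/fl, and all chosen spots together held 4078606 and 3954493 UMIs. Of the chosen spots, 36.9% in the AEG-1ΔMAC section and 44.5% in AEG-1fl/fl were among the 535 and 635 kept spots with the fewest UMIs, and 12.6% and 7.09% among as many spots with the most. The score is a share of few UMIs, with a median of 11 score UMIs in a chosen spot of AEG-1ΔMAC against 5 in the rest, and 9 against 5 in AEG-1fl/fl, and the shallowest chosen spot of AEG-1ΔMAC had 153 UMIs and 1 score UMI. Just inside the threshold the score was 482.3 counts-per-million (CPM, scaled to the UMIs of all genes) and just outside 481.1 in AEG-1ΔMAC, and 502.3 and 500.9 in AEG-1fl/fl. Given the depth of each kept spot, the variance of its score UMIs was 1.48 (AEG-1ΔMAC) and 1.43 (AEG-1fl/fl) times that of counting alone. Counting error thus had a part in which spots were chosen. Because shallow spots vary more by counting alone, the ratios to the rest were also computed against spots of the same depth and of the same lobular position. A total of 1782 spot barcodes occur in both libraries, which are positions of the array and not shared cells.

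Mtdh was measured first because it is the gene deleted in myeloid cells. It was at 66.0 CPM, taken over the sum of the spots, in the chosen spots of AEG-1ΔMAC and 60.7 in those of AEG-1fl/fl. In the rest it was at 66.3 and 60.2. The log2 ratio of AEG-1ΔMAC over AEG-1fl/fl in the chosen spots was 0.12, with a 95% interval from -0.14 to 0.38. Intervals of levels, shares and ratios are exact binomial or Poisson, those of differences between ratios are normal approximations, and all cover counting error only. Myeloid cells are a small part of a spot, so this level does not test the deletion, and Lyz2 had only 2 UMIs in the chosen spots of each library.

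The score genes themselves are given as a description, since they chose the spots. Clec4g was at 318 CPM in the chosen spots and 139 in the rest of AEG-1ΔMAC, and at 307 and 139 in AEG-1fl/fl. Stab2 was at 128 and 58.1 in the AEG-1ΔMAC section and at 144 and 56.6 in AEG-1fl/fl. Kdr was at 139 and 62.1 in the AEG-1ΔMAC section and at 158 and 69.1 in AEG-1fl/fl. The genes were not absent elsewhere, and in the rest a Clec4g UMI was still present in 92.3% of spots (AEG-1ΔMAC) and 90.7% (AEG-1fl/fl). When the top 10% were instead chosen on the other 2 score genes, the gene left out was higher in the spots so chosen by a log2 ratio of 0.33 and 0.32 (AEG-1ΔMAC and AEG-1fl/fl) for Clec4g, 0.33 and 0.50 for Stab2, and 0.37 and 0.42 for Kdr, with every interval above 0. Over whole libraries the genotypes differed little in these genes. The log2 ratio of AEG-1ΔMAC over AEG-1fl/fl was 0.03 (95% interval -0.02 to 0.07) for Clec4g, 0.02 (-0.05 to 0.09) for Stab2 and -0.14 (-0.21 to -0.07) for Kdr.

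Endothelial genes that the score did not use were higher in the chosen spots of both livers. The values are a description of spots chosen on correlated genes of the same cells, and no test was made. A gene was called higher where its CPM was above that of the rest by a log2 ratio of at least 0.32 in each library with both intervals above 0, and lower by the reverse rule. Of the 6927 genes that reached a mean of 10 CPM, 47 were called higher (0.679%) and 14 lower (0.202%). By the same rule in 1 library alone, 153 genes were higher in the AEG-1ΔMAC section and 160 in AEG-1fl/fl, 132 and 163 were lower, and 2 genes were higher in one library and lower in the other. The 7 lists of endothelial genes (sinusoidal, pan-endothelial, pericentral, periportal, large-vessel and lymphatic, endocytic receptors and coagulation) held 75 measured genes besides the score genes. Of the 50 with at least 10 CPM, 15 were called higher and none lower, 41 were above 0 in both libraries and 3 below 0 in both, against 26.4% of all genes above 0 in both. Their median log2 ratio was 0.35 in the AEG-1ΔMAC section and 0.30 in AEG-1fl/fl, while the median of all genes was -0.01 in each.

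**Figure D1:**
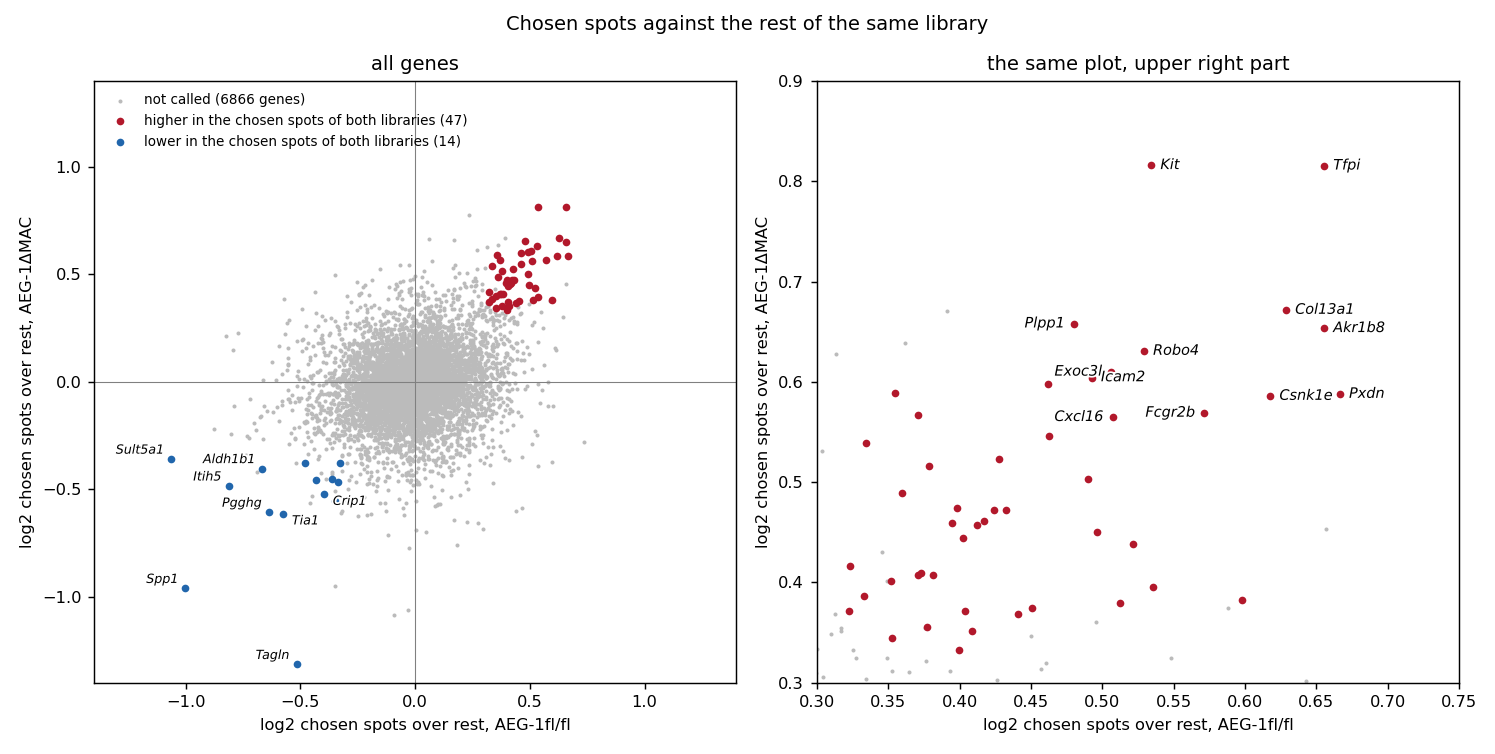
Log2 ratio of CPM in the chosen spots over the rest for each of 6927 genes, AEG-1fl/fl on the x axis and AEG-1ΔMAC on the y axis, with the upper right part enlarged on the right. The 47 genes called higher (red) and 14 called lower (blue) lie outside a cloud centred near 0, and the called higher genes named are the 12 with the highest mean.

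The genes with the highest mean ratio included several of the vessel wall. Tfpi, the inhibitor of the tissue factor pathway of coagulation, was at 16.7 CPM in the chosen spots and 9.47 in the rest of AEG-1ΔMAC, and at 15.9 and 10.1 in AEG-1fl/fl, log2 ratios of 0.82 and 0.66. Kit, the stem cell factor receptor that pericentral sinusoidal cells carry, was at 23.8 and 13.5 in the AEG-1ΔMAC section and at 13.1 and 9.08 in AEG-1fl/fl (0.82 and 0.53). Both genes were higher in the chosen spots of each liver.

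Among adhesion and guidance genes, Robo4, an endothelial guidance receptor, had log2 ratios of 0.63 and 0.53 in AEG-1ΔMAC and AEG-1fl/fl. Icam2, a constitutive endothelial adhesion molecule, had 0.60 and 0.49. Cxcl16, a membrane-bound chemokine and scavenger receptor, had 0.56 and 0.51. Of the matrix genes, Col13a1, a transmembrane collagen, had 0.67 and 0.63, and Pxdn, a peroxidase that cross-links type IV collagen, had 0.59 and 0.67. The other genes among the 12 were Fcgr2b (0.57 and 0.57), the inhibitory Fc receptor by which sinusoidal cells clear immune complexes, the lipid phosphatase Plpp1 (0.66 and 0.48), the exocyst-related Exoc3l (0.61 and 0.51), the aldo-keto reductase Akr1b8 (0.65 and 0.66) and the kinase Csnk1e (0.59 and 0.62). These 12 genes had 36 to 378 UMIs in the chosen spots of a library, so many intervals were wide (for Tfpi 0.42 to 1.19 and 0.25 to 1.04). Those of the lowest came close to 0, as for Col13a1 with 36 UMIs in AEG-1fl/fl (0.08 to 1.13).

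Other called genes, named after their values were seen, have known vascular roles. Gpihbp1, which anchors lipoprotein lipase on capillaries, was at 89.2 CPM in the chosen spots and 67.3 in the rest of AEG-1ΔMAC and at 91.8 and 70.5 in AEG-1fl/fl (0.41 and 0.38). Calcrl, the adrenomedullin receptor, had 0.59 and 0.35, Cd300lg had 0.38 and 0.51, the junction regulator Rasip1 had 0.47 and 0.40, the basement membrane proteoglycan Hspg2 had 0.54 and 0.33, and the endocytic adaptor Dab2 had 0.52 and 0.38. Ets1 was at 29.9 and 22.4 CPM in the AEG-1ΔMAC section and at 27.3 and 21.8 in AEG-1fl/fl (0.42 and 0.32), and Erg, at 15.4 and 11.7 and at 11.9 and 10.9 (0.40 and 0.12), was not called.

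The scavenging and uptake machinery of the sinusoid was measured more deeply. Stab1, the second stabilin, was at 98.6 CPM in the chosen spots and 72.1 in the rest of AEG-1ΔMAC and at 95.3 and 67.6 in AEG-1fl/fl, log2 ratios of 0.45 (95% interval 0.30 to 0.60) and 0.50 (0.34 to 0.65). The mannose receptor Mrc1 was at 93.2 and 75.4 in the AEG-1ΔMAC section and at 95.1 and 77.0 in AEG-1fl/fl, ratios of 0.31 and 0.30 that missed the threshold of 0.32. Both receptors were thus higher in both livers, with overlapping intervals. The scavenger receptors Cd36 (0.35 and 0.32) and Msr1 (0.40 and 0.27) were on the same side, whereas Scarb1 (-0.04 and -0.06) and Lrp1 (-0.04 and -0.24) were not. Which cells of a spot carried the RNA of these receptors was not tested. Of the 8 endocytic receptor genes with at least 10 CPM, 2 were called higher, Stab1 and Fcgr2b, and none lower.

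**Figure D2:**
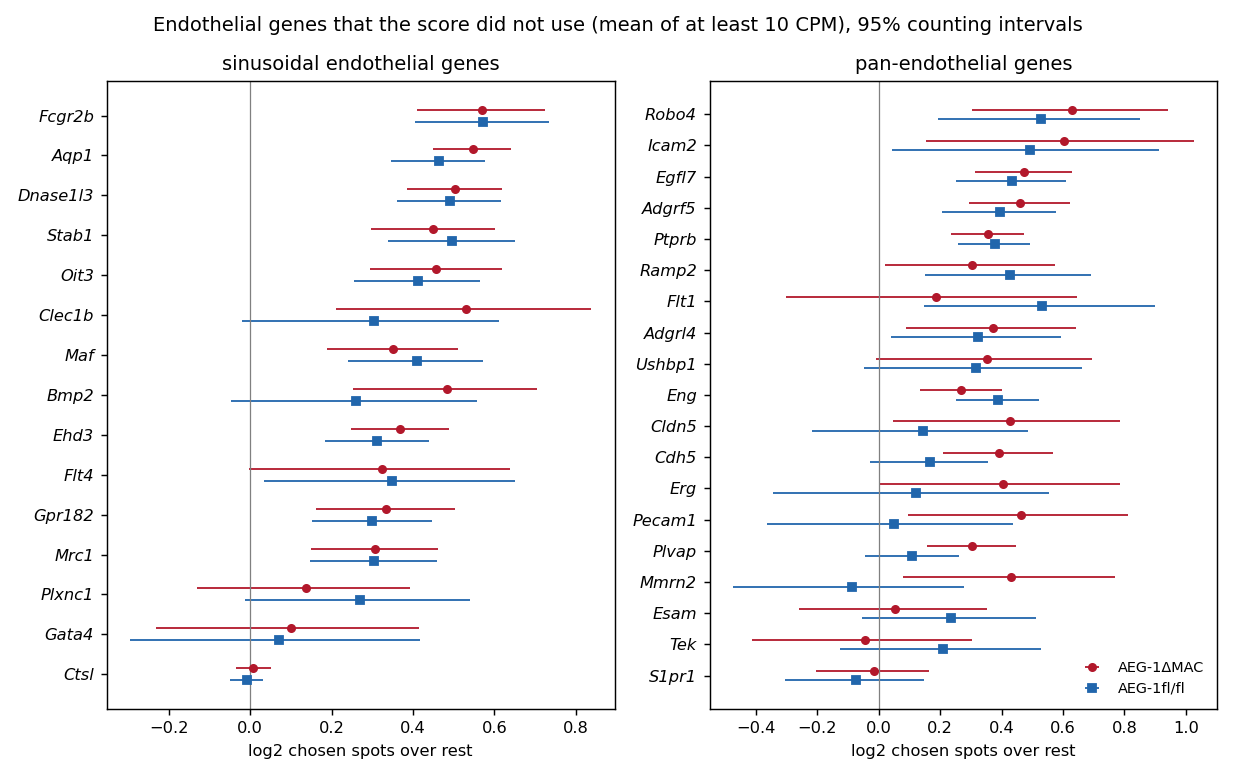
Log2 ratio of the chosen spots over the rest for the genes of the sinusoidal (left) and pan-endothelial (right) lists that reached a mean of 10 CPM, with 95% counting intervals, red for AEG-1ΔMAC and blue for AEG-1fl/fl. Fcgr2b and Aqp1 lead the sinusoidal list and Ctsl sits at 0.

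Of the 15 sinusoidal genes with at least 10 CPM, 6 were called higher. The water channel Aqp1 was at 248 CPM in the chosen spots and 170 in the rest of AEG-1ΔMAC and at 175 and 127 in AEG-1fl/fl (0.55 and 0.46). Dnase1l3, a secreted DNase made by sinusoidal cells, was at 170 and 120 and at 142 and 101 (0.50 and 0.49). Stab1, Fcgr2b, Oit3 (0.46 and 0.41) and the transcription factor Maf (0.35 and 0.41), which sets sinusoidal identity, were the other 4. Ehd3 (0.37 and 0.31), the orphan receptor Gpr182 (0.33 and 0.30), Clec1b (0.53 and 0.30) and the VEGF-C receptor Flt4 (0.33 and 0.35) were above 0 in both but were not called. Gata4, another transcription factor of these cells, was at 22.1 and 20.6 CPM in the AEG-1ΔMAC section and at 18.5 and 17.6 in AEG-1fl/fl, log2 ratios of 0.10 and 0.07 with intervals on both sides of 0.

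Lyve1, Il1a and Cd209b, which are also on the sinusoidal list, had under 10 CPM. Summed over the 18 genes of the list, the log2 ratio was 0.21 (0.18 to 0.24) in the AEG-1ΔMAC section and 0.16 (0.13 to 0.19) in AEG-1fl/fl. The lysosomal protease Ctsl, which many cell types make, gave the largest share of the sum, at 1146 CPM in the chosen spots and 1139 in the rest of AEG-1ΔMAC and at 1359 and 1367 in AEG-1fl/fl (0.01 and -0.01). Without it the list stood at 0.43 and 0.40, and the median over the genes of the whole list was 0.37 and 0.35. At equal depth of the rest the summed list was at 0.20 and 0.15, and at equal lobular position at 0.19 and 0.16.

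Of the 19 pan-endothelial genes with at least 10 CPM, 6 were called higher. Ptprb, the endothelial phosphatase that acts on Tie2, was the most abundant of these, at 160 CPM in the chosen spots and 125 in the rest of AEG-1ΔMAC and at 164 and 127 in AEG-1fl/fl (0.36 and 0.38). Egfl7 (0.47 and 0.43), Adgrf5 (0.46 and 0.39) and Adgrl4 (0.37 and 0.32) were called with Robo4 and Icam2. The summed list was 0.33 (0.28 to 0.38) and 0.28 (0.23 to 0.33). Some genes of vessels in general were above 0 with an interval off 0 in AEG-1ΔMAC only. Pecam1 had 0.46 in the AEG-1ΔMAC section and 0.05 in AEG-1fl/fl, Cdh5 had 0.39 and 0.17, Cldn5 had 0.43 and 0.14, and Plvap had 0.31 and 0.11. The differences between the libraries were not tested. S1pr1, the receptor for sphingosine 1-phosphate, was near 0 in both (-0.02 and -0.07).

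In the VEGF and angiopoietin pathway, the receptors stood above 0 and the ligands near it. The 6 receptors summed to 0.19 (0.03 to 0.35) and 0.32 (0.17 to 0.47), and the 7 ligands to -0.09 (-0.21 to 0.04) and -0.07 (-0.20 to 0.06). No gene of either list was called. Flt1 was at 10.5 and 9.26 CPM in the AEG-1ΔMAC section and 17.2 and 11.9 in AEG-1fl/fl (0.19 and 0.53), and Vegfa, made largely by hepatocytes, was at 104 and 113 and at 81.4 and 88.6 (-0.12 in each). Klf2, the transcription factor induced by shear stress, had 0.22 and 0.25. In coagulation, factor VIII (F8), which sinusoidal cells make, had 0.31 and 0.19, with intervals that reached below 0.

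Genes of larger vessels and lymphatics were nearer to 0 in sum. Their list, of 10 measured genes, had a summed ratio of -0.13 (-0.33 to 0.07) in the AEG-1ΔMAC section and 0.03 (-0.18 to 0.24) in AEG-1fl/fl, and its median gene was -0.43 in each. Only 3 of these genes reached 10 CPM. Vwf, von Willebrand factor of larger vessels, was at 10.1 CPM in the chosen spots and 15.8 in the rest of AEG-1ΔMAC, and at 11.9 and 9.83 in AEG-1fl/fl, which lie on opposite sides of 0 (-0.66 and 0.27) with an interval off 0 in AEG-1ΔMAC alone.

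**Figure D3:**
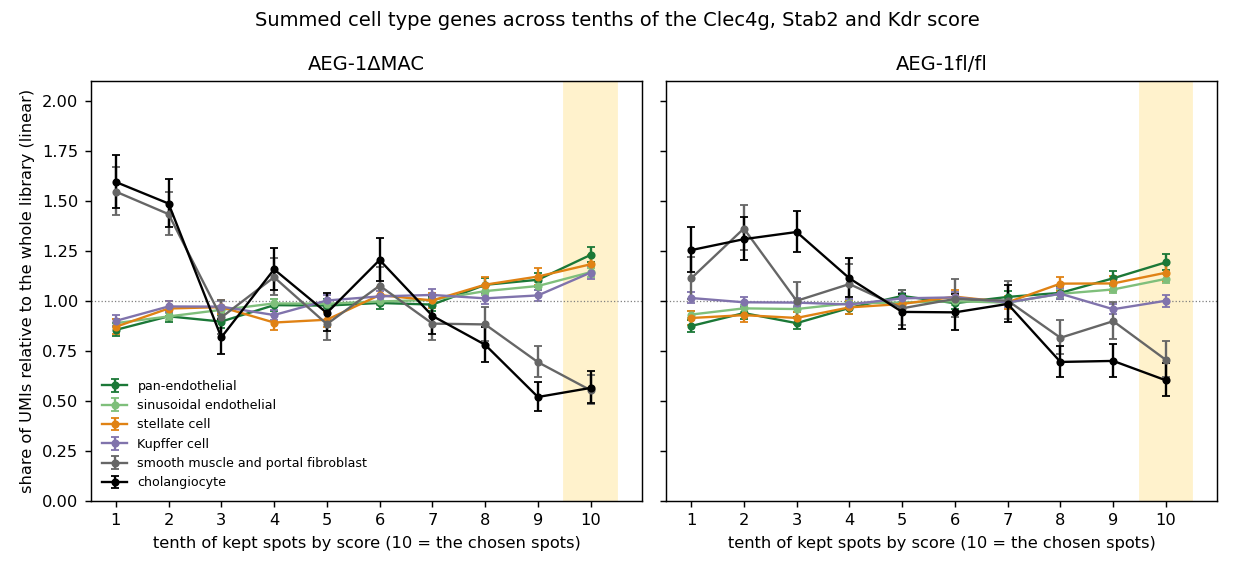
Share of UMIs of 6 gene lists in 10 equal bins of the kept spots by score, relative to the whole library (1 on a linear axis), with 95% Poisson intervals, AEG-1ΔMAC left and AEG-1fl/fl right. The shaded bin holds the chosen spots, where the endothelial and stellate lists are highest and the cholangiocyte and smooth muscle lists are low.

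Other cell types differed in how they moved with the score. Stellate cell genes, of the pericytes that wrap the sinusoid, summed to 0.27 (0.21 to 0.33) in the AEG-1ΔMAC section and 0.21 (0.15 to 0.26) in AEG-1fl/fl, with none of 11 genes called. Reln (0.45 and 0.29), Dcn (0.34 and 0.19) and Ecm1 (0.31 and 0.28) had intervals above 0 in both. Of the chosen spots, 15.9% in the AEG-1ΔMAC section and 18.5% in AEG-1fl/fl were also among the top 10% for stellate genes, with exact binomial intervals of 11.3% to 21.5% and 13.9% to 23.8%. Kupffer cell (KC) genes were above the rest in AEG-1ΔMAC. Their sum was 0.21 (0.17 to 0.25) in AEG-1ΔMAC, where 12.1% of chosen spots were in the top 10% for KC genes, and 0.00 (-0.04 to 0.05) in AEG-1fl/fl, where 12.2% were. At equal lobular position the sums were 0.18 and 0.09, which lie closer together. Clec4f, a lectin restricted to KCs, was at 228 CPM in the chosen spots and 195 in the rest of AEG-1ΔMAC and at 185 and 192 in AEG-1fl/fl (0.23 and -0.05).

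Cholangiocyte and portal wall genes were lower in the chosen spots. Spp1 (osteopontin), strongly expressed by bile duct cells, was at 36.0 CPM in the chosen spots and 70.1 in the rest of AEG-1ΔMAC and at 29.6 and 59.2 in AEG-1fl/fl, with intervals of the log2 ratio of -1.21 to -0.72 and -1.28 to -0.73. The smooth muscle gene Tagln was at 6.37 and 15.9 and at 12.6 and 18.1 (-1.31 and -0.52). Summed, the cholangiocyte list was -0.89 and -0.78 and the smooth muscle and portal fibroblast list -0.92 and -0.54. Gas6, a ligand of TAM receptors on the same list, was -0.55 and -0.35, and the fibrillar collagen Col1a2, named after its values were seen, was -0.47 and -0.33. The other named genes were Crip1 (-0.52 and -0.40), Itih5, a hyaluronan-associated protein (-0.48 and -0.81), the RNA-binding protein Tia1 (-0.61 and -0.58), the glucosidase Pgghg (-0.61 and -0.64), the sulfotransferase Sult5a1 (-0.36 and -1.06) and the mitochondrial dehydrogenase Aldh1b1 (-0.40 and -0.67). At equal lobular position Aldh1b1 was only at -0.11 and -0.33, while Spp1 was still at -0.69 and -0.73.

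The list of 9 measured hepatocyte genes, at 171297 CPM in the chosen spots of AEG-1ΔMAC and 236985 in those of AEG-1fl/fl, had a summed ratio of 0.00 in both libraries. Of its genes, 4 were above 0 and 4 below 0 in both. Erythroid genes had -0.94 in the AEG-1ΔMAC section and -0.05 in AEG-1fl/fl. In AEG-1ΔMAC, 52.4% of erythroid UMIs lay in the richest 5% of spots, 5 of them chosen spots, and without the richest 5% of each library the ratios were -0.21 and -0.14. With the erythroid genes taken out of the totals, the summed sinusoidal list was at 0.21 and 0.16 as before.

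Fewer of the called genes were called against a reweighted rest or with spots chosen otherwise. Most kept their side, but they were picked for that side in these same counts, so this adds no support. Against a rest of equal depth, 26 of the 47 higher genes were called and all 47 were above 0 in both libraries, and 13 of the 14 lower genes were called. At equal lobular position 31 of the 47 and 6 of the 14 were called. When each spot was thinned to 8000 UMIs before scoring, only 99 of 212 spots so chosen in AEG-1ΔMAC and 131 of 251 in AEG-1fl/fl were among the chosen spots, and 5 of the 47 genes and 4 of the 14 were called, although 46 of the 47 were above 0 in both. Across genes, the ratios of the 2 libraries had a Pearson r of 0.23 over 6927 genes and 0.43 over the 2170 genes with at least 50 CPM. Genes are not independent replicates, and low genes carry more counting error.

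The chosen spots leaned away from the portal tract. A zone index, the mean scaled log level of zone 3 hepatocyte markers minus that of zone 1 markers, ordered the spots of each library. Of the chosen spots, 24.3% lay in the most portal of 3 equal parts of the index, 38.8% in the middle part and 36.9% in the most central part in AEG-1ΔMAC, and 20.9%, 33.5% and 45.7% in AEG-1fl/fl. With 10 equal bins, in the most portal bin 6 spots (AEG-1ΔMAC) and 9 (AEG-1fl/fl) were chosen. The libraries differed at the central end: in the most central bin, 10 chosen spots (4.67% of those in the section) lay in AEG-1ΔMAC against 42 (16.5%) in AEG-1fl/fl, and the score genes summed to 259 CPM and 324 CPM there. In the bin next to it they were at 318 and 329 CPM with 33 chosen spots each. The index was scaled within each library on zone 3 markers, whose log2 ratio of AEG-1ΔMAC over AEG-1fl/fl was 1.10 in the chosen spots and 1.31 in the rest. The same bin thus need not be the same lobular position in both livers. In AEG-1fl/fl the most central bin also had the fewest UMIs per spot, and the part of depth in this contrast was not tested. Zone 1 markers were lower in the chosen spots of both livers (-0.15 and -0.23) and zone 3 markers higher (0.05 and 0.26).

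**Figure D4:**
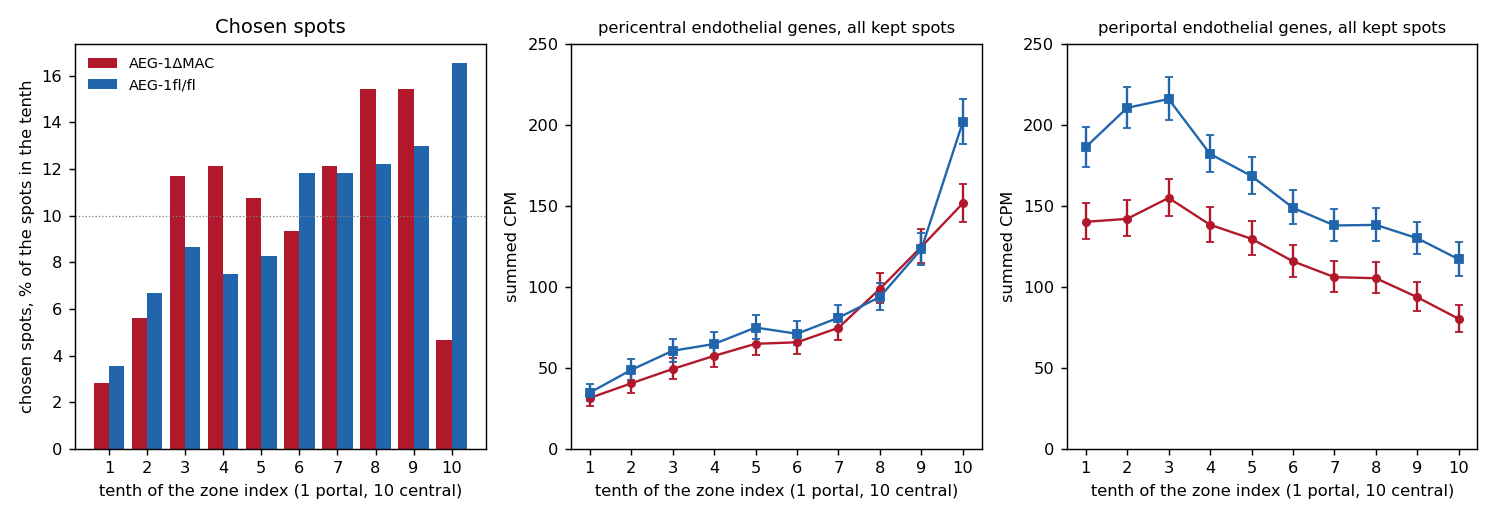
Left, chosen spots as a percentage of the kept spots in 10 equal bins of the zone index (10% dotted), and middle and right, summed CPM of pericentral and periportal endothelial genes in all kept spots with 95% Poisson intervals, red for AEG-1ΔMAC and blue for AEG-1fl/fl. Pericentral genes climb to 152 and 202 CPM in the most central bin, and periportal genes are highest in a portal bin, the third.

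The endothelial genes of the chosen spots followed the lobule. These genes are in neither the score nor the zone index. Pericentral endothelial genes summed to 134 CPM in the chosen spots of the central part and 44.5 in those of the portal part in AEG-1ΔMAC, a log2 ratio of 1.59 (1.11 to 2.11), and to 140 and 69.7 in AEG-1fl/fl (1.01, 0.58 to 1.46). Fabp4, a gene of this list, gave 55 of the 203 central and 18 of the 42 portal UMIs in AEG-1ΔMAC. In AEG-1fl/fl it gave 129 of 254 and 41 of 54. Its own log2 ratios were 0.93 (0.14 to 1.79) and 0.43 (-0.09 to 0.97). The list without Fabp4 was not computed, so its sums are not compared between the livers. Rspo3, the Wnt enhancer that central vein endothelium secretes, was at 21.1 and 4.24 CPM in the AEG-1ΔMAC section and 21.6 and 7.74 in AEG-1fl/fl (2.32 and 1.48). Kit was at 35.7 and 11.6 and at 19.9 and 9.03 (1.62 and 1.14), with an interval that reached below 0 in AEG-1fl/fl. The cadherin Cdh13 had 14 UMIs in central and 1 in portal chosen spots of AEG-1ΔMAC, and 9 and 0 in AEG-1fl/fl.

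Periportal endothelial genes ran the other way. They summed to 115 CPM in central and 172 in portal chosen spots of AEG-1ΔMAC (-0.58, -0.89 to -0.26) and to 154 and 263 in AEG-1fl/fl (-0.78, -1.04 to -0.51). Ltbp4, a binding protein of latent TGF-β, had log2 ratios of -0.66 and -0.65, with both intervals below 0. Ntn4, a netrin of vessel walls, was at 13.9 and 20.1 CPM in the AEG-1ΔMAC section and at 22.1 and 55.5 in AEG-1fl/fl (-0.54 and -1.33), and Msr1 had -0.56 and -1.09, each with an interval off 0 in AEG-1fl/fl alone. The KC list ran the same way in these spots, at -0.34 (-0.45 to -0.24) and -0.63 (-0.74 to -0.52). Whether Msr1 followed endothelial cells or KCs was not tested. The summed sinusoidal list was at 0.10 (0.02 to 0.18) and 0.02 (-0.06 to 0.10) as log2 ratios of central over portal. Stab1 had 0.52 (0.12 to 0.93) and 0.39 (-0.03 to 0.83), Aqp1 had 0.20 (-0.05 to 0.45) and 0.43 (0.12 to 0.75), and Dnase1l3 had 0.03 (-0.26 to 0.33) and 0.37 (0.02 to 0.72). Ctsl had 0.11 in AEG-1ΔMAC, with an interval that reached below 0, and -0.15 (-0.25 to -0.04) in AEG-1fl/fl, and Fcgr2b (0.16 and 0.20) and Mrc1 (0.03 and 0.05) had intervals on both sides of 0.

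The 2 genotypes were then compared within the chosen spots, with score genes left out. The question was whether sinusoid-rich regions differ when AEG-1 is deleted in myeloid cells, and with 1 liver per genotype the values describe these 2 livers. Of the 6912 genes that reached a mean of 10 CPM in the chosen spots, 95 were higher in AEG-1ΔMAC by 2-fold or more (1.37%) and 50 were lower by 2-fold or more (0.723%), with an interval off 0. In the rest, 87 and 37 of 6928 genes were. The genes with the largest ratios, named after their values were seen, are on no endothelial list. Cish, a target of growth hormone signalling, was at 97.1 CPM in the AEG-1ΔMAC section and 5.56 in AEG-1fl/fl (4.13), Alas1, the first enzyme of haem synthesis, at 292 and 17.7 (4.04), and Tff3, a secreted trefoil peptide, at 8.58 and 299 (-5.12). All 145 called genes were on the same side in the rest and 93 were also past the threshold there. Over all genes, the log2 ratio had a median of 0.14 in the chosen spots and 0.15 in the rest. Other scalings moved every ratio by -0.13 (TMM factors) or -0.14 (totals without the 50 most abundant genes), which brought the median to 0.02 and 0.01 and the share of higher genes among the calls from 65.5% to 48.9% and 48.5%. Ratios are therefore read against 0.14.

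**Figure D5:**
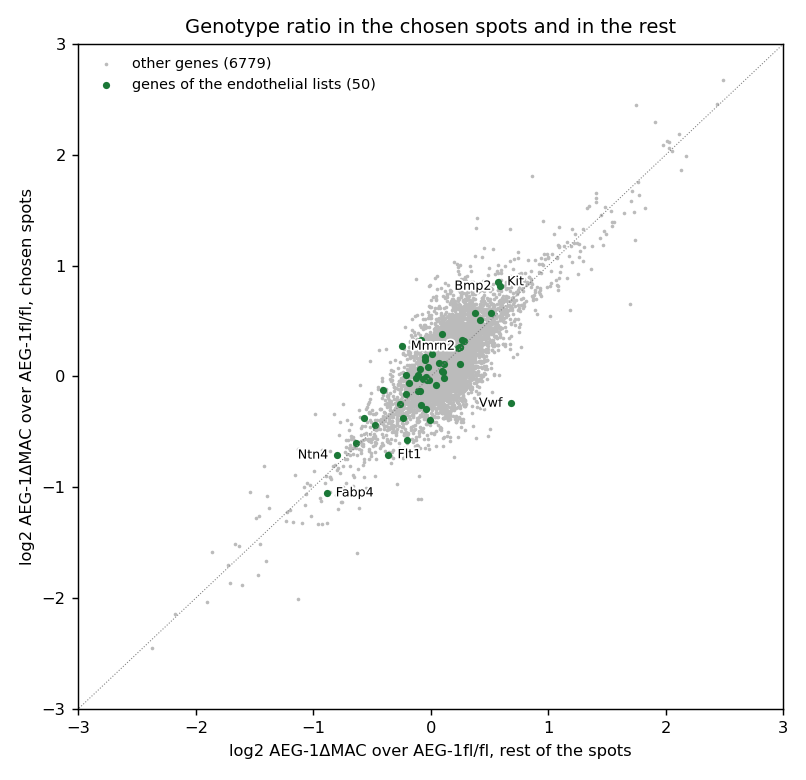
Log2 ratio of AEG-1ΔMAC over AEG-1fl/fl in the rest (x axis) and in the chosen spots (y axis) for genes with at least 10 CPM, the 50 genes of the endothelial lists in green and 6779 others in grey. Most genes follow the dotted line of equal ratios, 9 genes lie outside the axes, and Vwf lies below the line.

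Of all tested genes, 1.37% were called 2-fold higher and 0.723% 2-fold lower, so few calls would be due in any 50 genes. Of the 50 endothelial genes, none was called 2-fold higher and 1 was called 2-fold lower. This was Fabp4, a fatty acid binding protein of capillary endothelium and macrophages, at 28.4 CPM in the AEG-1ΔMAC section and 58.9 in AEG-1fl/fl, for a ratio of -1.05 on the log2 scale (-1.38 to -0.72), and of -0.89 in the rest. Their median ratio was 0.00 in the chosen spots and -0.04 in the rest. The summed sinusoidal list was at 2411 CPM in the AEG-1ΔMAC section and 2518 in AEG-1fl/fl, for a ratio of -0.06 on the log2 scale (-0.10 to -0.02), and of -0.11 in the rest. Ctsl was at -0.25, and without it the list was at 0.13, on the other side of 0 but near the 0.14 of all genes. The whole list and the median of the 50 genes were below that 0.14. The pan-endothelial list was at 975 and 910 CPM (0.10, 0.03 to 0.16), below the 0.14 of all genes, and TMM scaling would put it below 0.

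Single sinusoidal genes moved in both directions. Bmp2, the ligand by which sinusoidal cells signal iron load to hepatocytes, was at 45.4 CPM in the chosen spots of AEG-1ΔMAC and 25.8 in those of AEG-1fl/fl, which is a log2 ratio of 0.81 (0.46 to 1.18), and of 0.59 in the rest. Its hepatocyte target Hamp, the gene of the iron hormone hepcidin, was at 649 and 255 CPM (1.35, 1.24 to 1.45), and at 1.09 in the rest. Bmp6, the other iron-sensing ligand of these cells, was at 12.5 and 14.7 CPM, with an interval on both sides of 0 (-0.80 to 0.34). Tmprss6, a hepatocyte inhibitor of the pathway, was at 326 and 256 CPM (0.35). Whether the Hamp difference goes with that of Bmp2 was not tested.

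Aqp1 was at 248 and 175 CPM (0.51, 0.36 to 0.65), Kit at 23.8 and 13.1 (0.85, 0.35 to 1.37) and S1pr1 at 65.2 and 44.0 (0.57, 0.29 to 0.85), all higher in AEG-1ΔMAC also against the median of all genes. Gpr182 was at 78.0 and 106 CPM (-0.44, -0.66 to -0.23) and Cd36, a fatty acid and scavenger receptor, at 71.1 and 108 (-0.60, -0.82 to -0.38), both lower. Flt1 was at 10.5 and 17.2 CPM (-0.71, -1.29 to -0.13). In the rest each of these 6 genes was on the same side, at 0.42, 0.57, 0.51, -0.48, -0.64 and -0.36 in that order.

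Periportal endothelial genes were lower in AEG-1ΔMAC, at 141 against 187 CPM in the chosen spots (-0.40, -0.56 to -0.24) and -0.45 in the rest. Ntn4 was at 17.2 and 28.1 CPM (-0.71) and Ltbp4 at 47.1 and 60.9 (-0.37). In the portal, middle and central parts the list was at -0.62, -0.34 and -0.42, with every interval below 0. The summed pericentral list was at 94.1 and 105 CPM (-0.16, -0.36 to 0.05) and at -0.14 in the rest, while its median gene was at 0.66, on the other side of 0. Fabp4 was its 1 gene called lower. At the levels given above, Fabp4 made up a large part of this sum, more so in AEG-1fl/fl. The sum without it was not computed, so no direction is read from the summed list. Kit was at 0.85 as given above, and Wnt2, a Wnt ligand of central endothelium, was at 1.20 (0.40 to 2.06) but had under 10 CPM. Basement membrane and capillarisation genes were also lower, at -0.45 (-0.55 to -0.35) and -0.46 in the rest. Col4a1, a chain of type IV collagen, was at 22.6 and 46.5 CPM (-1.04) and the matrix glycoprotein Sparc at 97.8 and 186 (-0.92). In the parts from portal to central this list was at -0.22, -0.29 and -0.66, and the interval of the portal part reached above 0.

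Neighbouring cell types differed as well. The KC list was at 0.19 (0.14 to 0.25) in the chosen spots and -0.02 in the rest, and the difference of 0.21 (0.15 to 0.27) had an interval off 0. This difference is the gap between the 2 libraries' ratios of chosen spots over the rest, which was smaller at equal lobular position as given above. Fcna (0.55) and Cd5l (0.37) were higher and Marco (-0.81) and Fabp5 (-1.58) lower among its genes. Relative to the 0.14 of all genes, the list in the chosen spots was near the median. The stellate list was at -0.19 (-0.26 to -0.11) in the chosen spots and -0.25 in the rest. How much of the endothelial differences goes with these neighbours was not tested.

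The genotype ratio was also compared between the chosen spots and the rest. Among 2157 genes with at least 50 CPM, 206 had an interval of the difference off 0, 97 above and 109 below. With so many genes, some intervals miss 0 by counting error alone, and the number due was not computed. These intervals also leave out variation between spots beyond counting. The 206 genes are therefore not read as differences particular to the chosen spots. Genes are named here only as the extremes of this ranking. The 6 largest positive differences were those of Vti1b (0.64 in the chosen spots against 0.19), Ube2g1 (0.63 against 0.19), Pitpna (0.28 against -0.14), Sf3b2 (0.49 against 0.08), Eif6 (0.56 against 0.18) and Snx29 (0.40 against 0.03), genes of vesicle transport, ubiquitination, lipid transfer, splicing and ribosome assembly that no endothelial list holds. The negative ones were led by the haemoglobin genes Hba-a2 (-1.11 against -0.08) and Hbb-bs (-1.10 against -0.11), whose UMIs in AEG-1ΔMAC lay in few spots as given above. The others were Slc1a2, a glutamate transporter of pericentral hepatocytes (0.60 against 1.18), the stress gene Gadd45g (4.04 against 4.49), Ero1lb (0.24 against 0.68) and Ccdc58 (-0.24 against 0.15). Slc1a2 was at 117 CPM in the chosen spots of AEG-1ΔMAC and 128 in the rest, and at 77.1 and 56.6 in AEG-1fl/fl, log2 ratios of -0.14 and 0.45. At equal lobular position these were -0.12 and -0.03.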

How the data were processed

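The deposited files hold whole-number UMI counts per gene and spot, which the authors made from Visium reads with Space Ranger 2.0.1 and the mm10 probe set, 1 filtered matrix per section. Per the processing notes of the submitters, Seurat 4.3.0 was also used. Both libraries cover 19465 genes, and none of the authors' comparisons was used. The study gives 2149 (AEG-1ΔMAC) and 2543 (AEG-1fl/fl) spots after its filter, which are the numbers of deposited barcodes. The limits it states, applied here to the deposited counts, left 2140 and 2540. Spot positions were not used here, and doublet calling does not apply to spots.

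UMIs were summed over chosen spots and over the rest, and scaled to CPM. With 1 library per genotype and spots that are not replicates, no test was made. Ratios carry 95% exact conditional binomial intervals (scipy 1.17.1), and list levels exact Poisson intervals. Ratios at equal depth or zone position weighted the rest over 10 strata to match the chosen spots. Intervals of these ratios and of differences between genotype ratios were normal approximations. TMM factors came from edgeR 4.0.16. The ratio, interval and call rules were checked on simulated Poisson counts. These hold counting error only, so the check does not cover variation between spots beyond it. Gene positions used GENCODE M21 (GRCm38), and promoters RefSeq.

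Named genes were the score genes, Mtdh and Lyz2, the 12 highest and 8 lowest called genes, the 6 largest differences on each side between genotype ratios, and genes of 30 lists. The chosen spots and lists were set with earlier results of these data known. Ccl21a, Folr2, Ly6c2, Hba-a1, Tf, Glul, Elovl6, Isg15 and Cx3cl1 were not analysed here. Of 18 alternative settings, 2 were added after seeing the data.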

Additional observations from a re-analysis of the deposited data

Results flagged for a closer look

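The list of BMP ligands, inhibitors and hepatocyte targets lay on opposite sides of 0 in the 2 libraries. Its summed log2 ratio of the chosen spots over the rest was 0.070 in the AEG-1ΔMAC section and -0.104 in the other, and both counting intervals were off 0. Hamp, the most abundant gene of the list, had 0.09 and -0.16, and at equal lobular position the list stood at 0.00 and -0.05. The difference between the libraries was not tested.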

How the results depend on the processing

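Of 90 values under 18 alternatives, 2 of them added after seeing the data, 60 stayed close to the value reported, 29 moved and 1 turned its direction. The summed sinusoidal list, 0.21 in AEG-1ΔMAC, was 0.18 in the top 20% of spots, 0.17 with a score without Clec4g, 0.14 with spots thinned to 8000 UMIs and 0.43 without Ctsl. In AEG-1fl/fl, at 0.16, it was 0.23 in the top 5% of spots, 0.12 without Clec4g in the score, 0.13 after thinning and 0.40 without Ctsl. The 47 higher genes became 24 in the top 20%, 25 without Clec4g, 8 after thinning, 27 against a rest of equal depth, 13 at a minimum of 50 CPM and 5 at a ratio of 1.5. The 14 lower genes became 6 without Clec4g, 8 after thinning, 9 at equal lobular position, 24 at a minimum of 1 CPM, 1 at 50 CPM and 2 at a ratio of 1.5. Between genotypes, the sinusoidal list, at -0.06, was -0.19 with TMM factors, -0.20 with totals without the 50 most abundant genes and 0.13 without Ctsl. The 95 higher genes became 155 in the top 5%, 251 at 1 CPM, 35 at 50 CPM and 507 at a ratio of 1.5. The 50 lower genes became 194, 16 and 157 under the last 3 of these. Causes other than these settings were not tested. No paired analysis was possible because each genotype had 1 library. Depth limits the low genes most, since an interval off 0 is needed in both libraries.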
